A study of Homo sapiens with 8 samples.

Results

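Epithelial-mesenchymal transition (EMT) is the shift in which sheet-forming cells held together by E-cadherin loosen their junctions and take on a motile, matrix-rich, vimentin-filled state. The transcriptional repressors ZEB1, ZEB2, SNAI1 (Snail) and SNAI2 (Slug) bind E-box motifs in the promoters of epithelial genes such as CDH1 and silence them, while the miR-200 microRNAs repress ZEB1 and ZEB2 in turn. In pancreatic ductal cancer the balance between these states is one of the main axes along which cell lines differ. Here 10 EMT genes, of the 60675 genes listed in the count tables, were followed by symbol through their Ensembl identifiers. They were 3 epithelial genes (CDH1, EPCAM, ESRP1), 3 mesenchymal genes (CDH2, VIM, FN1) and 4 repressors (ZEB1, ZEB2, SNAI1, SNAI2).

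RNA sequencing counts came from Panc10.05, an established human pancreatic adenocarcinoma cell line, and from a derivative of it made resistant to indisulam by long culture. This sulfonamide works as a molecular glue, recruiting RBM39, a splicing factor, to the substrate receptor DCAF15 for degradation. The 8 libraries formed 4 groups, each of 2 libraries. Parental untreated cells received no drug, and parental indisulam cells received 2 µM for 18 h. Resistant indisulam cells were grown at 2 µM without a break, and resistant untreated cells had been off it for 1 wk, so both resistant groups share the history of selection under rising doses. The resistant line was a selected population rather than a stated single clone, and there was 1 such line. Paired libraries are described in the study as technical replicates, so the p-values measure the spread between these libraries only. Titles and the cell line label give Panc10.05, and were followed, although the growth and treatment labels mention A549, a lung line. In bulk RNA a smaller share of cells of a kind and less RNA per cell cannot be told apart.

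Reads assigned to genes numbered 65266253 to 108002436 per library, counted without molecular identifiers. Of the 60675 genes listed, 22728 to 25263 had a read in a library, and 16661 passed the filter on low counts. Counting error weighs most on genes with few reads, CDH2, ZEB2 and VIM among them. The 5 simple epithelial and ductal markers (keratins and MUC1) were all detected, with a summed level of 5731.8 to 11518.8 CPM (counts normalised to library size with TMM factors). Their group means were 5794.26 and 5832.7 CPM in parental cells and 10166.3 and 11321.2 CPM in resistant cells, without and with the drug. Of 6 lung markers, 4 had 0 reads in every library and the summed level was at most 0.198 CPM. No A549 library was compared, so these values cannot tell Panc10.05 from A549. Of 4 foregut and pancreas factors, 3 exceeded 3 reads in some library, with sums of 6.10 to 9.79 CPM. Fibroblast markers summed to at most 0.0890 CPM, with 2 of 5 at 0 in every library, and blood and endothelial markers summed to at most 0.0936 CPM, with 1 of 3 at 0. The fibroblast sum averaged 0.0230 and 0.0594 CPM in parental cells without and with the drug, and 0.0375 and 0.0705 CPM in resistant cells.

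All 4 groups carried an epithelial pattern in these genes. Compared per kilobase of exon, so that genes of different length can be set side by side, the order from the top was EPCAM, ESRP1, CDH1 and FN1 in every group, and ZEB1, VIM, CDH2 and ZEB2 closed it in every group. EPCAM stood at 163 and 191 CPM per kb in parental cells without and with the drug and at 175 and 178 CPM per kb in resistant cells. VIM stood at 0.0615 and 0.0631 CPM per kb in parental cells and at 0.139 and 0.208 CPM per kb in resistant cells. The per-kilobase level of CDH1 was 239 to 608 times that of VIM across the 8 libraries. Between these ends SNAI1 ranked above SNAI2 in both parental groups and SNAI2 above SNAI1 in both resistant groups. The libraries of neighbouring genes in this order did not overlap in any group, and the order was the same when the longest transcript replaced the exon union as the length.

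**Figure D1:**
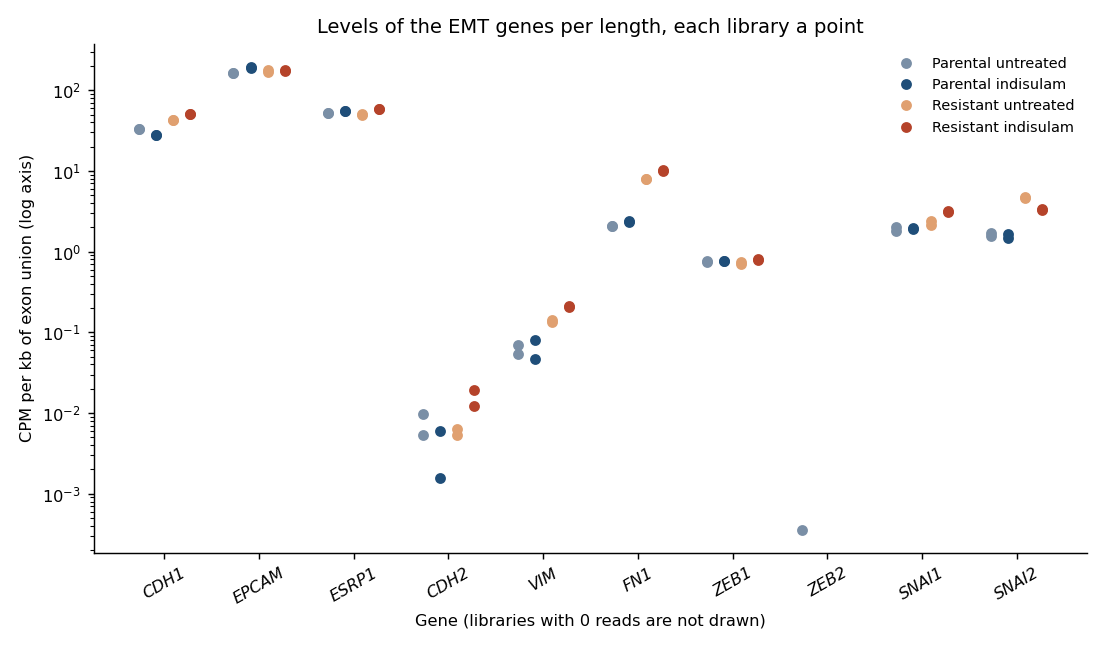
Level of each EMT gene in CPM per kilobase of exon union (log axis), with 1 point per library and colours for the 4 groups. EPCAM, ESRP1 and CDH1 lie at the top in every group, VIM at 0.0464 to 0.209 CPM per kb, and ZEB2 has a single drawn point because 7 libraries had 0 reads.

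FN1 was 3.79-fold, SNAI2 2.90-fold and VIM 2.25-fold higher in resistant than in parental cells without the drug, and CDH1 was 1.29-fold higher in the same comparison. For FN1, SNAI2 and VIM the changes with the drug were smaller than these line differences, and for CDH1 they had opposite directions in the 2 lines. Of the 10 genes, 8 passed the filter on low counts and CDH2 and ZEB2 did not, so counts of calls below refer to these 8. In edgeR's quasi-likelihood test with Benjamini-Hochberg adjustment over all 16661 genes tested, most genes differed at these low spreads, so each count is read against the share called over all genes. The 2 libraries of the resistant line lay apart from those of the parental line for all 8 tested EMT genes without the drug (79.5% of all genes) and with it (83.8% of all genes). Treated and untreated libraries lay apart for 4 of the 8 in parental cells (78.8% of all genes) and for 7 in resistant cells (73% of all genes).

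**Figure D2:**
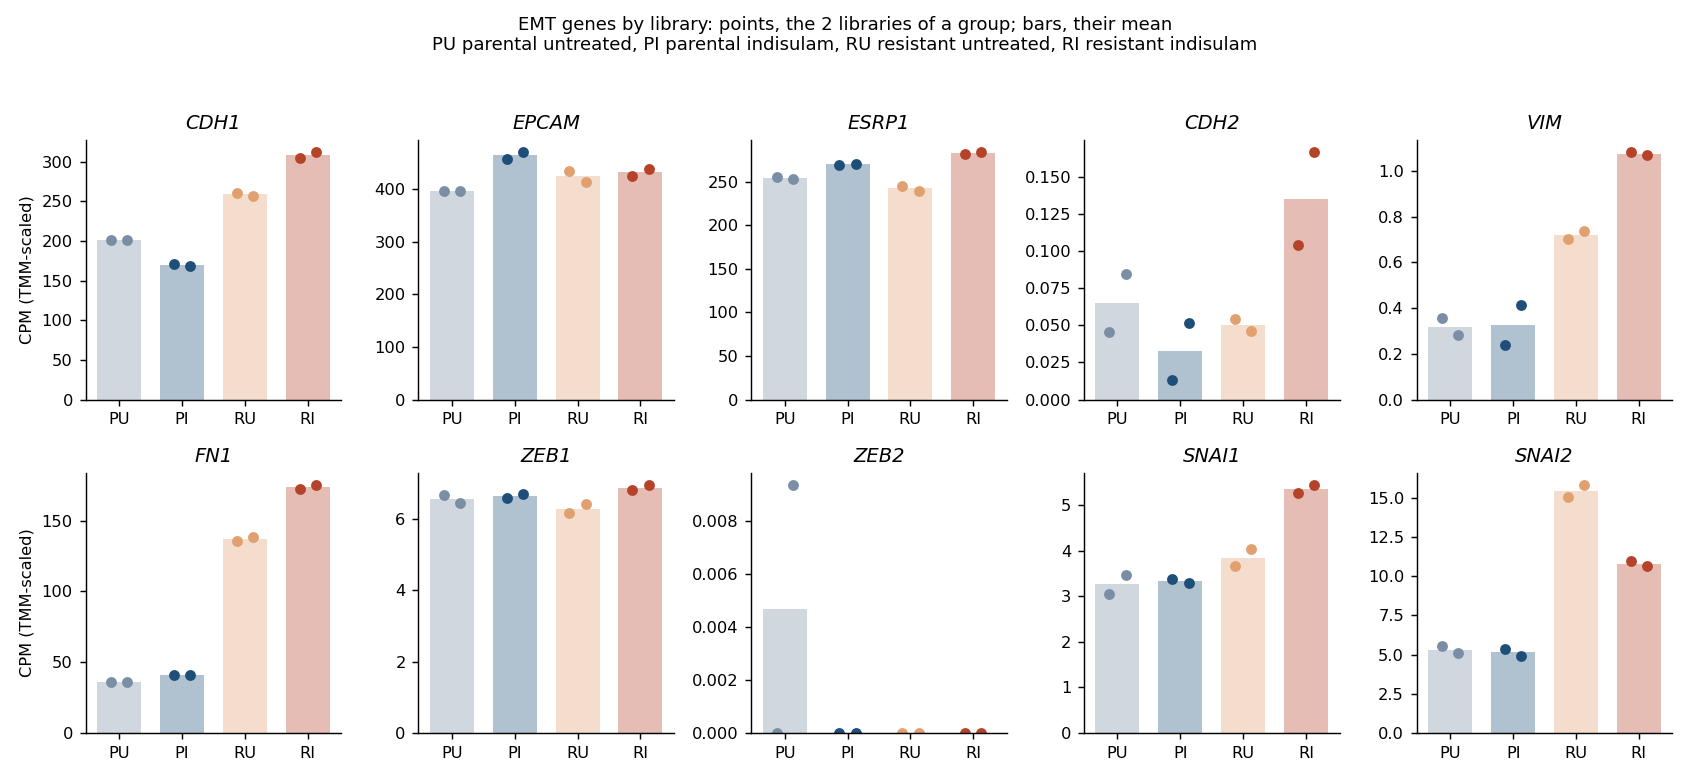
Level of the 10 EMT genes in TMM-scaled CPM, 1 panel per gene, each y axis from 0. Points are the 2 libraries of a group and bars their mean, with P for parental and R for resistant cells, U for untreated and I for indisulam. FN1, VIM and SNAI2 are higher in both resistant groups, whereas EPCAM, ESRP1 and ZEB1 stay within a narrow band.

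Resistant untreated against parental untreated cells asks what differs in the resistant line once the drug is withdrawn. In this comparison 60.1% of all tested genes were called, and 7 of the 8 EMT genes were, 6 higher (30.3% of all genes) and 1 lower (29.9% of all genes). The higher genes were FN1, SNAI2, VIM, CDH1, SNAI1 and EPCAM, the lower one was ESRP1, and ZEB1 was not called. Their median log2 difference was 0.30 against -0.02 over all tested genes, and 3 of them passed 1 log2 unit. When the test was made against a difference of 0.5 log2 units, which 15.5% of all genes passed, FN1, SNAI2 and VIM were called. Without the first parental untreated library 4 genes were called, EPCAM, ESRP1 and SNAI1 being lost.

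Resistant indisulam against parental indisulam cells asks the same with both lines on the drug, though the exposures differ in length. Here 69.5% of all genes were called, and 7 of the 8 EMT genes were, 6 higher (34.6% of all genes) and 1 lower (34.9% of all genes). EPCAM was the lower one, and ZEB1 again was not called. With library totals alone as the scaling the split was 6 higher and 0 lower. The median log2 difference was 0.77 against 0.00 over all genes. Against a difference of 0.5 log2 units, which 21.1% of all genes passed, FN1, VIM, SNAI2, CDH1 and SNAI1 were called. The line comparisons and the drug comparisons use the same 4 groups, so they are not independent of each other.

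**Figure D3:**
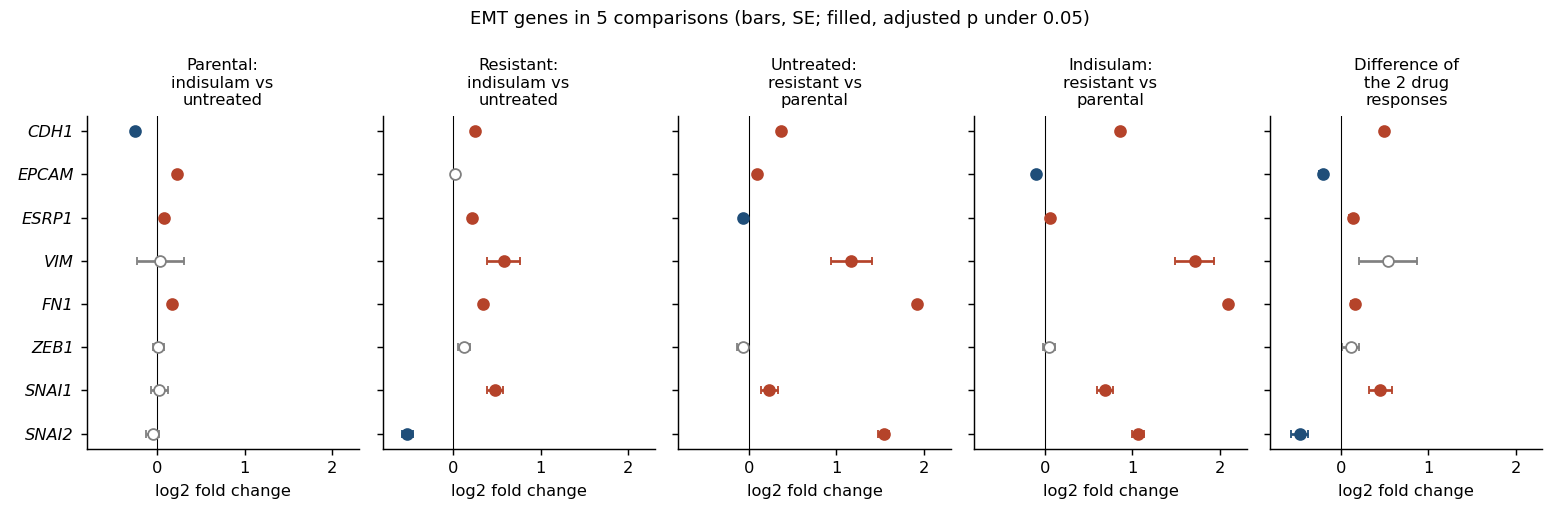
Log2 fold change of the 8 tested EMT genes in 5 comparisons, with bars of 1 SE. Filled points have an adjusted p under 0.05 (red higher, blue lower) and open grey points do not. FN1, SNAI2 and VIM lie beyond 1 log2 unit in both line comparisons, and CDH1 lies on opposite sides of 0 in the 2 drug comparisons.

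In parental cells 58.2% of all genes were called after 18 h, and 4 of the 8 EMT genes were, with EPCAM, ESRP1 and FN1 higher (31.6% of all genes were) and CDH1 lower (26.6% of all genes were). In resistant cells on the drug against those off it, 50.7% of all genes were called and 6 of the 8 EMT genes were, with CDH1, ESRP1, FN1, VIM and SNAI1 higher (24.9% of all genes were) and SNAI2 lower (25.8% of all genes were). Against a difference of 0.5 log2 units, which 6.25% and 5.28% of all genes passed in the parental and the resistant line, edgeR called 0 of the 8 in either line, also at an unadjusted p under 0.05, and no other tool was run against this size. The difference between the 2 drug responses, resistant minus parental, was called for 50.1% of all genes and for 6 of the 8 EMT genes, 4 positive (CDH1, ESRP1, FN1, SNAI1; 22.7% of all genes) and 2 negative (EPCAM, SNAI2; 27.5% of all genes). Against 0.5 log2 units, which 5.45% of all genes passed, 0 of the 8 were called, also at an unadjusted p under 0.05. With library totals alone, which moved the median of this difference over all genes from 0.01 to 0.13, the split was 4 positive and 1 negative, and EPCAM lost its call (adjusted p = 0.0768).

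CDH1 encodes E-cadherin, the adhesion receptor of epithelial adherens junctions (Ensembl ENSG00000039068, GRCh38 chr16:68737292-68835537, plus strand). Its level was 201 and 201 CPM in parental untreated cells, 171 and 168 CPM in parental indisulam cells, 261 and 257 CPM in resistant untreated cells, and 304 and 312 CPM in resistant indisulam cells. No 2 groups overlapped, the lowest group being parental indisulam and the highest resistant indisulam. CDH1 fell by 0.25 (log2) in parental cells given the drug (SE 0.0275, adjusted p = 7.25e-08) and rose by 0.25 in resistant cells (SE 0.0272, adjusted p = 4.69e-08). The difference of these responses was 0.50 (SE 0.0387, adjusted p = 7.09e-10). Between the lines CDH1 was 0.36 log2 units higher in resistant cells without the drug (SE 0.0273, adjusted p = 3.37e-11) and 0.86 higher with it, a 1.82-fold difference (SE 0.0276, adjusted p = 2.98e-18). A ferritin pseudogene lying in the CDH1 locus, FTLP14, held 0.974% of the reads of the pair, and a lncRNA antisense to CDH1 held 0.013%.

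EPCAM encodes an epithelial surface adhesion molecule (ENSG00000119888, chr2:47345158-47387601, plus strand). It measured 396 and 396 CPM in parental untreated cells, 458 and 470 CPM in parental indisulam cells, 434 and 414 CPM in resistant untreated cells, and 425 and 439 CPM in resistant indisulam cells. The parental untreated libraries were the lowest and the parental indisulam libraries the highest, while the 2 resistant groups overlapped. The drug response was 0.23 in parental cells (adjusted p = 5.59e-07) and 0.03 in resistant cells (adjusted p = 0.48). These responses differed by -0.20 (SE 0.0414, adjusted p = 0.000309). The line differences were 0.10 without the drug (adjusted p = 0.0058) and -0.10 with it (adjusted p = 0.00351). Both line calls were lost when single libraries were left out, with adjusted p of 0.0501 and 0.106 for the first (without the first parental untreated and the first resistant untreated library) and 0.174 and 0.0746 for the second (without the second parental indisulam and the first resistant indisulam library). The second was also lost with library totals alone (-0.01, adjusted p = 0.654) and with genes of a mean of at least 1 CPM (-0.02, adjusted p = 0.469).

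ESRP1 encodes an epithelial splicing regulator that sets the epithelial isoforms of many transcripts (ENSG00000104413, chr8:94641074-94707466, plus strand). It measured 255 and 253 CPM in parental untreated cells, 269 and 271 CPM in parental indisulam cells, 246 and 239 CPM in resistant untreated cells, and 281 and 284 CPM in resistant indisulam cells. In both lines the treated libraries lay above the untreated ones. The drug raised ESRP1 by 0.22 log2 units in resistant cells (SE 0.0271, adjusted p = 2.97e-07). In parental cells its increase of 0.09 (adjusted p = 0.00817) was not called when any 1 of 6 libraries, all but the resistant untreated ones, was left out (adjusted p = 0.0522 to 0.167), nor with library totals alone (0.02, adjusted p = 0.524), without a filter (0.06, adjusted p = 0.181) or with genes of a mean of at least 1 CPM (0.03, adjusted p = 0.314). The line differences were -0.07 without the drug (adjusted p = 0.0305) and 0.07 with it (adjusted p = 0.0322). The first was not called when any 1 of the 4 parental libraries or the second resistant untreated library was left out, nor by the DESeq2 Wald test (adjusted p = 0.11). The second was not called without either parental untreated or either resistant indisulam library (adjusted p = 0.0593 to 0.101). The responses of the lines differed by 0.14 (SE 0.0382, adjusted p = 0.00483).

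FN1 encodes fibronectin, an extracellular matrix glycoprotein and a standard mesenchymal marker (ENSG00000115414, chr2:215360440-215436073, minus strand). It was the EMT gene with the widest range of group means, 2.263 log2 units, followed by VIM, SNAI2 and CDH1. It measured 36.0 and 36.2 CPM in parental untreated cells, 40.6 and 41.0 CPM in parental indisulam cells, 135 and 139 CPM in resistant untreated cells, and 172 and 175 CPM in resistant indisulam cells. The 4 groups did not overlap. The difference of resistant from parental cells was 1.92 log2 units without the drug (SE 0.0306, adjusted p = 2.82e-24) and 2.09 with it, a 4.25-fold difference (SE 0.0309, adjusted p = 1.34e-24). The drug raised FN1 by 0.18 in parental cells (adjusted p = 6.54e-05) and by 0.34 in resistant cells (adjusted p = 5.94e-10), and the responses differed by 0.16 (SE 0.0432, adjusted p = 0.00291). The per-kilobase ratio of CDH1 to FN1 was 15.9 and 15.7 in parental untreated cells, 11.9 and 11.6 in parental indisulam cells, 5.46 and 5.25 in resistant untreated cells, and 5.01 and 5.05 in resistant indisulam cells.

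VIM encodes vimentin, the intermediate filament of mesenchymal cells (ENSG00000026025, chr10:17228241-17237593, plus strand). Its level was low throughout. It had 39 and 30 reads in parental untreated cells, 18 and 32 in parental indisulam cells, 52 and 48 in resistant untreated cells, and 73 and 103 in resistant indisulam cells. In CPM these were 0.356 and 0.281, 0.240 and 0.413, 0.702 and 0.739, and 1.08 and 1.07. Each resistant library lay above each parental library, and the 2 parental groups overlapped. The difference of resistant from parental cells was 1.17 log2 units without the drug (SE 0.229, adjusted p = 0.000112) and 1.71 with it, a 3.27-fold difference (SE 0.220, adjusted p = 2.78e-07). Within resistant cells the drug raised VIM by 0.58 (SE 0.189, adjusted p = 0.0133), a call that the DESeq2 Wald test did not make (adjusted p = 0.147) and that was lost when 1 of 3 libraries was left out, the first resistant untreated or either resistant indisulam library (adjusted p = 0.0530 to 0.0703). In parental cells the response was 0.04 (SE 0.270, adjusted p = 0.911). The responses differed by 0.54 (SE 0.330), which was not called (adjusted p = 0.183), although leaving out the second parental indisulam library gave 1.01 (adjusted p = 0.0391). Relative to CDH1, VIM stayed rare in the resistant line, the per-kilobase ratio of CDH1 to VIM being 239 and 248 in the 2 resistant indisulam libraries.

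The upstream 250 bases of the FN1 and VIM starts are given because these are the mesenchymal markers that were higher in resistant cells. They come from RefSeq (GRCh38.p14), 5′ to 3′ on the gene's strand and ending at the base before the annotated start. Of the 10 EMT genes, 5 had an entry in the promoter table (CDH2, VIM, FN1, ZEB1 and ZEB2), and CDH1, EPCAM, ESRP1, SNAI1 and SNAI2 had none. Capitals mark a match to a cAMP response element, TGACGTCA, which is its own reverse complement.
FN1 chr2:215436069-215436318 minus strand: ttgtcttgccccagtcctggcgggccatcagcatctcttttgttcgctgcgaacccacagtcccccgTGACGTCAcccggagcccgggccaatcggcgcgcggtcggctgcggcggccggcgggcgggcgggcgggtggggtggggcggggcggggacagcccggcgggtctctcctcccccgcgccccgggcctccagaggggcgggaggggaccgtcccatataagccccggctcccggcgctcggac
VIM chr10:17227991-17228240 plus strand: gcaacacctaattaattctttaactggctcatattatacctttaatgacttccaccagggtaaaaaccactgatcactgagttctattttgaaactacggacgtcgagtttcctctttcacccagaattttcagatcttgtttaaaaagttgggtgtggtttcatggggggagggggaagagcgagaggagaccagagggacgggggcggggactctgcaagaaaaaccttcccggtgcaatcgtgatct

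The FN1 window held 1 such element, starting 183 bases before the start, and 1.646% of the 35116 promoter windows of the same length held 1. The E-box CAGGTG, read on both strands, stood in neither window, against 17.493% of all windows, and the AP-1 letters TGACTCA, on both strands, stood in neither, against 4.203% of all windows. A match or its absence describes letters only.

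CDH2 encodes N-cadherin, the cadherin that replaces E-cadherin in the classical cadherin switch (ENSG00000170558, chr18:27932879-28177946, minus strand). It did not pass the filter, with 5 and 9 reads in parental untreated cells, 1 and 4 in parental indisulam cells, 4 and 3 in resistant untreated cells, and 7 and 16 in resistant indisulam cells. In CPM both resistant indisulam libraries (0.104 and 0.166 CPM) lay above the other 6, of which the highest had 0.0842 CPM. With reads summed over the 2 libraries of a group, resistant indisulam cells had 23 reads against 5 in parental indisulam cells. Scaled by the library totals, as are the ratios below, this gave a ratio of 4.56 (exact 95% interval 1.69 to 15.3, covering counting error only). Against resistant untreated cells the ratio was 2.89 (1.20 to 7.97). Resistant untreated against parental untreated cells gave 0.763 (0.261 to 2.02), and the drug in parental cells gave 0.484 (0.136 to 1.42), intervals that include 1. An unnamed lncRNA on the opposite strand held 27.941% of the reads of the pair. With 1 library left out, a group held only 1 library and CDH2 passed the filter in 7 of 8 fits. Only the second resistant indisulam library, with 16 reads, exceeded 9 reads, so CDH2 passed through the group where it was highest. These fits are therefore no support for a direction.

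SNAI2 encodes Slug, a zinc-finger repressor of CDH1 (ENSG00000019549, chr8:48917598-48921740, minus strand). It measured 5.55 and 5.07 CPM in parental untreated cells, 5.38 and 4.91 CPM in parental indisulam cells, 15.1 and 15.8 CPM in resistant untreated cells, and 10.9 and 10.6 CPM in resistant indisulam cells. The parental groups overlapped, and the resistant untreated libraries were the highest. SNAI2 was 1.54 log2 units higher in resistant than in parental cells without the drug (SE 0.0620, adjusted p = 2.57e-16) and 1.07 higher with it, a 2.10-fold difference (SE 0.0682, adjusted p = 1.34e-12). SNAI2 fell by 0.52 with the drug in resistant cells (SE 0.0585, adjusted p = 9.85e-08), and its response in parental cells was -0.05 (adjusted p = 0.59). The responses differed by -0.47 (SE 0.0937, adjusted p = 0.000228). SNAI2 was the only 1 of the 8 tested EMT genes with a lower level in resistant cells on the drug than off it that passed the test.

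SNAI1 encodes Snail, the relative of Slug (ENSG00000124216, chr20:49982980-49988886, plus strand). It measured 3.06 and 3.47 CPM in parental untreated cells, 3.37 and 3.29 CPM in parental indisulam cells, 3.66 and 4.05 CPM in resistant untreated cells, and 5.28 and 5.44 CPM in resistant indisulam cells. The resistant indisulam libraries stood above all others. The drug raised SNAI1 by 0.48 in resistant cells (SE 0.0901, adjusted p = 9.79e-05) and gave 0.03 in parental cells (adjusted p = 0.805), and the responses differed by 0.45 (SE 0.130, adjusted p = 0.00591). That difference lost its call without the second parental untreated library (0.36, adjusted p = 0.0540). With the drug SNAI1 was 0.69 higher in resistant than in parental cells (SE 0.0908, adjusted p = 4.12e-07). Without it the difference of 0.24 (SE 0.0930, adjusted p = 0.0323) was not called by the DESeq2 Wald test (adjusted p = 0.111) or without the first parental untreated, the second resistant untreated or either resistant indisulam library (adjusted p = 0.0583 to 0.285).

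ZEB1 encodes the zinc-finger homeobox repressor that forms a double-negative loop with the miR-200 family (ENSG00000148516, chr10:31318495-31529814, plus strand). It was the steadiest tested EMT gene, with group means spanning 0.128 log2 units. It measured 6.67 and 6.45 CPM in parental untreated cells, 6.58 and 6.70 CPM in parental indisulam cells, 6.16 and 6.42 CPM in resistant untreated cells, and 6.81 and 6.94 CPM in resistant indisulam cells. ZEB1 was called by edgeR in 0 of the 5 comparisons (adjusted p = 0.12 to 0.837, unadjusted p = 0.0713 to 0.79), and by the DESeq2 Wald test in 0 of them (adjusted p = 0.357 to 0.873). With library totals alone it was called for the drug in resistant cells (0.18, adjusted p = 0.0342), likewise with a mean CPM of at least 1 (0.16, adjusted p = 0.0475). ZEB1-AS1, a lncRNA transcribed from the opposite strand whose exons share 396 bases with ZEB1, held 61.675% of the reads of the pair and did move. It measured 12.3 and 12.3 CPM in parental untreated cells, 12.4 and 11.4 CPM in parental indisulam cells, 6.37 and 7.78 CPM in resistant untreated cells, and 10.07 and 10.39 CPM in resistant indisulam cells. ZEB1-AS1 was lower in resistant than in parental cells without the drug (-0.80, SE 0.0710, adjusted p = 3.26e-09) and rose with the drug in resistant cells (0.54, SE 0.0751, adjusted p = 4.27e-06). The strand setting of the counting is not given in the sources used here. The sum of the reads of both genes, most of them ZEB1-AS1, was called in 4 comparisons. It gave -0.50 between the untreated lines (adjusted p = 1.33e-08) and 0.36 for the drug in resistant cells (adjusted p = 6.63e-06). It also gave -0.12 between the lines on the drug (adjusted p = 0.0476) and 0.38 for the difference of the responses (adjusted p = 0.000144). In these last comparisons ZEB1-AS1 alone gave -0.22 and 0.58. Such calls describe the sum and not ZEB1. VIM has a smaller antisense partner of this kind, VIM-AS1, with 19.715% of the reads of its pair and 5 to 21 reads per library. For the sum of the VIM and VIM-AS1 reads the difference of the responses was called (0.89, adjusted p = 0.0120).

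ZEB2, the second ZEB repressor (ENSG00000169554, chr2:144364364-144521057, minus strand), had 1 read in all 8 libraries together, in a parental untreated library, and was not tested.

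The miR-200 family could be followed only through host transcripts, because microRNAs themselves were not measured in these polyadenylated RNA libraries. MIR200CHG (chr12:6963226-6964447, plus strand, a lncRNA of 2 exons), whose interval contains miR-200c and miR-141, measured 1.90 and 2.07 CPM in parental untreated cells, 1.08 and 0.994 CPM in parental indisulam cells, 0.891 and 1.08 CPM in resistant untreated cells, and 1.16 and 0.946 CPM in resistant indisulam cells. Parental untreated cells stood apart above the other 3 groups. MIR200CHG fell by 0.93 with the drug in parental cells (SE 0.143, adjusted p = 6.02e-06), and the difference of the resistant from the parental line without the drug was -1.02 (SE 0.148, adjusted p = 2.29e-06). The response was 0.08 in resistant cells and the line difference on the drug was 0.00, neither of them called. The difference of the responses was 1.02 (SE 0.224, adjusted p = 0.000595). The 3p mature sequences of the family are shown because they carry the seeds through which these microRNAs recognise ZEB1 and ZEB2 transcripts. They are from RefSeq (GRCh38.p14), 5′ to 3′, with the seed (bases 2 to 8) in capitals, and only the first 2 lie in MIR200CHG.
miR-200c-3p: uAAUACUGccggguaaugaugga
miR-141-3p: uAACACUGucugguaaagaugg
miR-200b-3p: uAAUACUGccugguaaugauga
miR-429: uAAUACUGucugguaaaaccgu
miR-200a-3p: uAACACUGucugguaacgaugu

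The family falls into 2 seed groups, AAUACUG (miR-200c, miR-200b and miR-429) and AACACUG (miR-141 and miR-200a), and MIR200CHG spans 1 microRNA of each group. MIR205HG, the host of miR-205, did not pass the filter.

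Lists of related genes placed the 10 genes in their pathways. Beside the counts of calls stand the shares of all 16661 tested genes: between the untreated lines 60.1% were called (30.3% higher and 29.9% lower in the resistant line), between the treated lines 69.5% (34.6% and 34.9%), with the drug in parental cells 58.2% (31.6% and 26.6%) and with the drug in resistant cells 50.7% (24.9% and 25.8%). Of 23 mesenchymal genes 14 were tested, and in untreated cells 11 of them were higher and 1 lower in the resistant line, 7 of the higher ones by more than 1 log2 unit, with a median of 0.88 against -0.02 over all tested genes, of which 60.1% were called. On the drug 11 were higher and 2 lower, 8 of the higher ones by more than 1 log2 unit, with a median of 1.89 against 0.00 over all genes, of which 69.5% were called. Some members, TNC and MMP9 among them, passed the filter through the resistant groups, so these counts and medians are a description and not support for a direction. TNC (tenascin C) had 3 and 2 reads in parental untreated cells and 594 and 545 in resistant untreated cells. The ratio of the summed reads, scaled by the library totals, was 348 (95% interval 149 to 1073, counting error only). MMP9 (a gelatinase) had 3 and 4 reads against 352 and 324, a ratio scaled in the same way of 147 (71.2 to 368). CCN2 was the lower gene on the drug with the largest fall among those of at least 1 CPM (-0.22, adjusted p = 0.000184). The other 9 of the 23 genes were too low to test. Beside these values, the 5 fibroblast markers together stayed at or below 0.0890 CPM in every library.

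**Figure D4:**
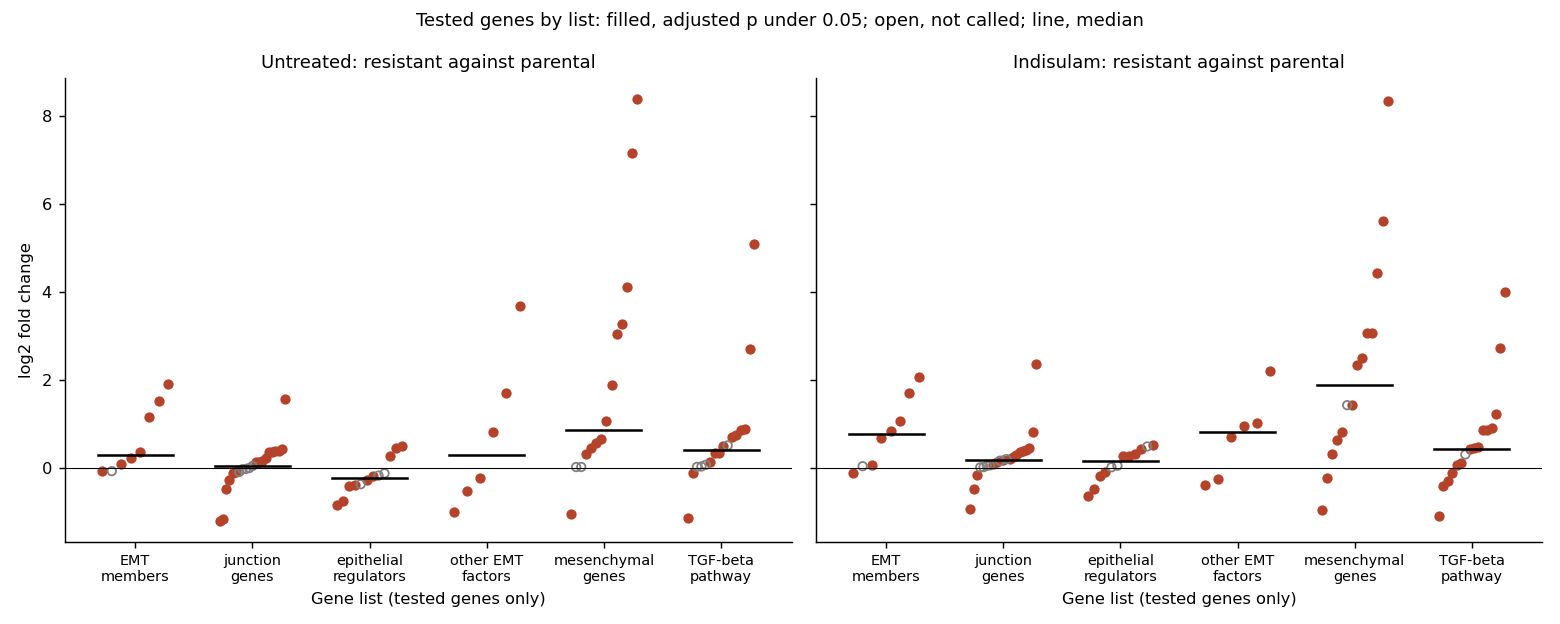
Log2 fold change of the tested genes of each list, resistant against parental cells, without the drug (left) and with it (right). Filled red points have an adjusted p under 0.05, open points do not, and the line is the median. The mesenchymal list has the highest median of the lists drawn in both panels (0.88 and 1.89). The junction list stays near 0 (0.05 and 0.18). Of the mesenchymal list 14 of 23 genes were tested, and some, TNC and MMP9 among them, passed the filter through the resistant groups. The medians are therefore a description and not support for a direction.

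Genes of the mesenchymal list and the TGF-beta pathway list split by what the drug did in resistant cells. TGFBI, a matrix protein induced by TGF-beta, measured 25.7 and 25.3 CPM in parental untreated cells, 25.5 and 25.9 CPM in parental indisulam cells, 450 and 441 CPM in resistant untreated cells, and 218 and 215 CPM in resistant indisulam cells, so that its drug response in resistant cells was -1.04 (SE 0.0272, adjusted p = 2.95e-19). MMP9 also fell by 0.56 there (adjusted p = 8.61e-05). COL1A1 (collagen I) rose by 1.31 (SE 0.127, adjusted p = 8.32e-09) and TAGLN (transgelin, an actin-binding protein) by 0.94 (SE 0.118, adjusted p = 4.38e-07). Over the whole list 6 genes rose and 5 fell in resistant cells, with a median of 0.11 against 0.01 over all genes (50.7% called), and in parental cells 3 rose and 3 fell, with a median of -0.04 against 0.01 (58.2% called). TAGLN fell by 0.73 in parental cells (adjusted p = 0.000417), and CCN2 (0.32) and CALD1 (0.24) rose there.

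All 16 TGF-beta pathway genes were tested. In untreated cells 10 were higher and 2 lower in the resistant line, with a median of 0.43, and on the drug 11 were higher and 4 lower, with a median of 0.45, against -0.02 and 0.00 over all genes, of which 60.1% and 69.5% were called. INHBA, which encodes the activin A subunit, measured 1.43 and 1.46 CPM in parental untreated cells, 2.17 and 2.04 CPM in parental indisulam cells, 48.2 and 51.0 CPM in resistant untreated cells, and 34.0 and 34.1 CPM in resistant indisulam cells. INHBA was thus 34.3-fold higher in resistant cells without the drug (log2 5.10, SE 0.0592, adjusted p = 7.37e-27). The ligand gene TGFB2 was 6.61-fold higher (log2 2.72, SE 0.139, adjusted p = 2.38e-14), whereas the co-receptor gene TGFBR3 was lower (-1.12, SE 0.0567, adjusted p = 2.07e-14) and TGFBR1 slightly so (-0.11, adjusted p = 0.0192). Of this list 9 genes rose and 3 fell with the drug in parental cells (58.2% of all genes were called), INHBA (0.55) and SMAD4 (0.43) leading, and TGFB3 (-0.42) and TGFB1 (-0.13) falling most. In resistant cells 8 rose and 5 fell (50.7% of all genes were called), LTBP1 (0.64) and TGFB3 (0.36) against INHBA (-0.54) and SMAD7 (-0.44). These 13 calls dropped to 7 with the DESeq2 Wald test, and to 7 without the first resistant untreated or the second resistant indisulam library. The 12 calls in parental cells dropped to 7 without the first parental untreated library.

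Of the 12 other EMT transcription factors 6 were tested, and TWIST1, TWIST2, PRRX1 and GSC had 0 reads in every library. In untreated cells 3 were higher and 3 lower in the resistant line, with a median of 0.31. On the drug 4 were higher and 2 lower, with a median of 0.83. The medians over all genes were -0.02 and 0.00, and 60.1% and 69.5% of all genes were called. TCF4, with 0 to 5 reads in parental and 8 to 20 reads in resistant libraries, passed the filter through the resistant groups. These counts and medians are thus a description and not support for a direction. HMGA2, an architectural chromatin protein, measured 47.5 and 48.8 CPM in parental untreated cells, 41.5 and 40.5 CPM in parental indisulam cells, 155 and 160 CPM in resistant untreated cells, and 80.3 and 79.3 CPM in resistant indisulam cells. Like SNAI2, HMGA2 was higher in resistant cells off the drug (1.71, SE 0.0310, adjusted p = 3.26e-23) and lower in them on it than off it (-0.98, SE 0.0303, adjusted p = 7.4e-18). TCF3 (-0.52 and -0.24 without and with the drug) and FOXC1 (-0.21 and -0.37) were lower in the resistant line. With the drug 3 of the 6 fell in parental cells (26.6% of all genes fell), HMGA2 (-0.23) and TCF3 (-0.21) among them. In resistant cells 1 rose and 1 fell (50.7% of all genes were called), the latter HMGA2, and without the second resistant untreated library 4 were called.

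**Figure D5:**
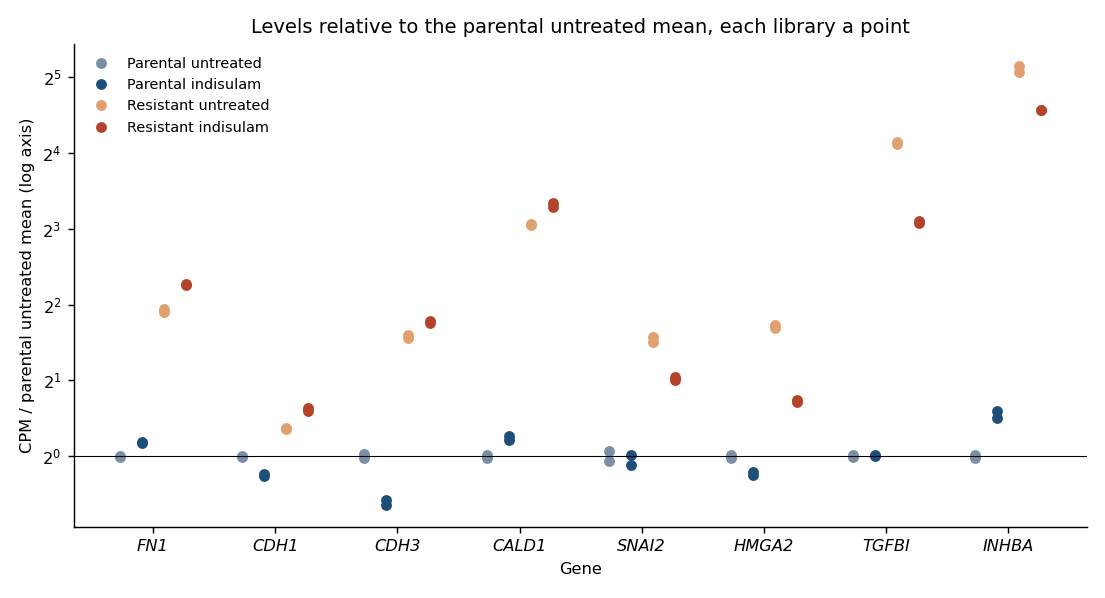
CPM of 8 genes divided by their parental untreated mean (log axis, base 2), with 1 point per library. The genes were picked with their values known, to show the 2 patterns described: FN1, CDH1, CDH3 and CALD1 are highest in resistant cells on indisulam, and SNAI2, HMGA2, TGFBI and INHBA are highest in resistant cells off it.

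All 21 epithelial junction genes were tested. In untreated cells 10 were higher and 6 lower in the resistant line (median 0.05), and on the drug 12 were higher and 3 lower (median 0.18), against medians of -0.02 and 0.00 over all genes, of which 60.1% and 69.5% were called. CDH3, P-cadherin, had 40.7 and 39.2 CPM in parental untreated cells, 26.6 and 25.6 CPM in parental indisulam cells, 121 and 117 CPM in resistant untreated cells, and 137 and 135 CPM in resistant indisulam cells. CDH3 was 2.99-fold higher in the resistant line without the drug (log2 1.58, SE 0.0327, adjusted p = 4.78e-22) and 5.21-fold higher with it (log2 2.38, SE 0.0350, adjusted p = 1.22e-24). The ratio of CDH3 to CDH1 in CPM was 0.152 to 0.202 in the parental libraries and 0.434 to 0.465 in the resistant libraries. CTNNA1 (alpha-catenin) was higher without the drug (0.45) and JUP (plakoglobin) with it (0.82). The polarity gene CRB3 was lower in both line comparisons (-1.18 and -0.93), as was MARVELD3 (a tight junction protein) with the drug (-0.46).

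With the drug 14 junction genes rose and 4 fell in parental cells (median 0.17 against 0.01 over all genes, of which 31.6% rose and 26.6% fell), OCLN (occludin, 0.43) and MARVELD3 (0.40) rising most and TJP3 (-0.64) among those that fell. In resistant cells 15 rose and 2 fell (median 0.19 against 0.01 over all genes, of which 24.9% rose and 25.8% fell), CLDN3 (claudin 3, 1.02) rising most, with PKP3 (-0.26) and CTNNB1 (beta-catenin, -0.14) the 2 that fell.

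Of 13 epithelial regulators 12 were tested, and in untreated cells 3 were higher and 6 lower in the resistant line, with a median of -0.22 against -0.02 over all genes, of which 60.1% were called. EHF (0.50) and GRHL2 (0.46), epithelial transcription factors, were higher, and ELF3 (-0.82) and KLF4 (-0.74) lower. On the drug 5 were higher and 4 lower, with a median of 0.17 against 0.00 over all genes (69.5% called), ELF3 (0.52) and KLF5 (0.44) higher and KLF4 (-0.62) and RBM47 (-0.46) lower. With the drug 10 rose and 0 fell in resistant cells, where 24.9% of all genes rose and 25.8% fell (edgeR, and 0 also at an unadjusted p under 0.05 by edgeR or DESeq2), ELF3 rising by 1.32 (SE 0.0840, adjusted p = 2.38e-11) and FOXA1 by 0.45. In parental cells 6 rose and 3 fell (31.6% and 26.6% of all genes did), with RBM47 (0.35) and GRHL2 (0.28) up and ESRP2 (-0.25), the close relative of ESRP1, and GRHL1 (-0.13) down.

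The other 16660 tested genes were set against FN1 over the 8 libraries by the root mean square difference of centred log2 CPM. Among those with a gene symbol, the nearest to FN1 were SOX4 (0.0734), AZGP1 (0.0828) and TACC1 (0.0959). SOX4 averaged 5.65 and 5.85 CPM in parental cells without and with the drug, and 21.4 and 24.5 CPM in resistant cells. AZGP1 averaged 0.897 and 0.970 CPM in parental cells and 3.14 and 4.05 CPM in resistant cells. TACC1 averaged 8.49 and 8.15 CPM in parental cells and 31.9 and 39.8 CPM in resistant cells. The 8 libraries form only 4 groups, so this likeness is described and not tested.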

How the data were processed

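Per the sources, polyadenylated RNA was made into stranded libraries and sequenced in pairs. Reads were trimmed with SeqPurge and aligned to GRCh38, and the submitters' processing notes name HISAT2 2.2.1, Picard and HTSeq without their roles. The authors deposited, for each library, a table of unnormalized read counts by gene. The strand setting and annotation release of the counting are not given in the sources used here. Each table listed 60675 genes and 9 lines that name no gene. These lines held 37.878% to 44.937% of a library and were left out. GENCODE release 44 supplied symbols and positions for 60419 identifiers.

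Counts were fitted with edgeR 4.0.16 in R 4.3.3 (filterByExpr, TMM scaling, robust quasi-likelihood, 4 group means, all 8 libraries, 4 residual degrees of freedom). A gene was called where its p, adjusted by the Benjamini-Hochberg method over all tested genes, was under 0.05. An SE was obtained as |log2 fold change| / √F. An exact permutation test of 2 libraries against 2 cannot go below p = 0.333, so none was used. The alternatives were DESeq2 1.42.0 size factors and Wald test, library totals alone, an unfiltered table, a minimum mean of 1 CPM, fits to only the groups compared, a replicate block, a threshold of 0.01, a test against 0.5 log2 units, thinning to the smallest library, each library left out, and, chosen after seeing the data, antisense reads added to ZEB1 and VIM. The members and lists were chosen with earlier results of these data known. Beside the 10 members, the text names by rule the 2 called genes of each list that rose and fell most, with a mean of at least 1 CPM. It also names by rule the 3 genes with a symbol nearest to the member of widest range. Some genes that this rule names are not reported here. Other named genes were chosen after their values were seen. Same-numbered libraries did not deviate together (r from -0.058 to 0.0272), and the reported fit did not pair them. With 2 libraries a group, this check cannot exclude that same-numbered libraries share a batch or culture day. The 2 libraries of a group differed by more than counting noise. The code was tested on simulated data. Plots were made in Python 3.11.15 (matplotlib 3.10.9).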

Additional observations from a re-analysis of the deposited data

Results flagged for a closer look

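The following genes are listed because their response to indisulam differed between the lines by the test of that difference itself, the edgeR interaction term with an adjusted p under 0.05. Values are the log2 response of resistant cells minus that of parental cells, and 50.1% of all tested genes passed the same test. Of the 10 EMT genes, CDH1 (0.50), ESRP1 (0.14), FN1 (0.16) and SNAI1 (0.45) had a more positive response in resistant cells, and EPCAM (-0.20) and SNAI2 (-0.47) a more negative one. For CDH1 the response was negative in parental and positive in resistant cells, with no overlap of treated and untreated libraries in either line.

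Of the related lists only some of the genes that passed are named here. Positive and negative differences passed for 11 and 3 junction genes, 4 and 2 epithelial regulators, and 2 and 1 other EMT transcription factors. They passed for 5 and 3 mesenchymal genes and 2 and 7 TGF-beta pathway genes. Over all tested genes 22.7% and 27.5% passed. These counts are a description and not support for a direction. Among junction genes the difference was 0.80 for CDH3, -0.27 for CTNNB1 and -0.38 for MARVELD3. Among epithelial regulators it was 0.56 for GRHL1, -0.14 for GRHL2, 1.34 for ELF3 and -0.22 for EHF. Among other EMT transcription factors it was 0.29 for TCF3 and -0.75 for HMGA2. Among mesenchymal genes it was 1.67 for TAGLN, 1.41 for COL1A1, -1.05 for TGFBI and -0.80 for CCN2. The response of TAGLN was -0.73 in parental and 0.94 in resistant cells.

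Among TGF-beta pathway genes it was 0.78 for TGFB3, 0.47 for LTBP1, -0.47 for SMAD7 and -1.09 for INHBA. The response of INHBA was 0.55 in parental and -0.54 in resistant cells. For MIR200CHG, the host of miR-200c and miR-141, the difference was 1.02. No explanation was tested for any of these differences.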

How the results depend on the processing

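Tested against a difference of 0.5 log2 units instead of 0, 0 EMT genes were called for the drug in parental cells (6.25% of all genes). For the drug in resistant cells 0 were called (5.28% of all genes), and for the difference of the responses 0 (5.45%). Between the untreated lines 3 were called (15.5% of all genes), and between the treated lines 5 (21.1%). With 1 library left out at a time the numbers called ranged from 3 to 4, from 5 to 7, from 4 to 6, from 6 to 8 and from 5 to 8 in the parental drug, resistant drug, untreated line, treated line and difference comparisons. These ranges include CDH2, which passed the filter in 7 of the 8 fits through the resistant indisulam group, where it was highest. Its calls for the resistant drug, the treated line and the difference are therefore no support for a direction. Over the 8 genes tested with all libraries those ranges were 5 to 6, 5 to 7 and 5 to 7. The lowest of the untreated line counts came without the first parental untreated library. With the replicate number as a block the counts were 4, 6, 7, 7 and 6 in the same order, and no call of an EMT gene changed. With the reported settings 58.2%, 50.7%, 60.1%, 69.5% and 50.1% of all genes were called in that order.

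No value of an EMT gene called with the reported settings changed its sign, and all but 2 of the changes of sign concerned the drug in parental cells. There VIM (0.04) was -0.02634 with library totals and -0.2219 with antisense reads added. ZEB1 (0.02) was -0.049 with library totals, -0.01277 without a filter, -0.03905 with genes of at least 1 CPM, -0.003085 with only the groups compared, -0.01121 after thinning and -0.02136 with antisense reads added. SNAI1 (0.03) was -0.03648 with library totals, -0.0002967 without a filter, -0.02663 with genes of at least 1 CPM and -0.0148 after thinning. Leaving out single libraries gave -0.4277 to 0.3534 for VIM, -0.01671 to 0.04303 for ZEB1, -0.05797 to 0.1234 for SNAI1 and -0.1341 to 0.01953 for SNAI2 there, and -0.01409 to 0.06423 for EPCAM with the drug in resistant cells. Between the lines on the drug the sum of the ZEB1 and ZEB1-AS1 reads gave -0.1167, which was called (edgeR, adjusted p = 0.0476). ZEB1-AS1 alone gave -0.22 there (edgeR, adjusted p = 0.00728). The cause of the changes of sign was not tested. Over all alternatives 616 log2 values of the EMT genes kept their direction and call, 68 lost a call, 8 gained one and 25 reversed. The threshold of 0.01 and the test against 0.5 log2 units leave the log2 values as they are, so no direction could change there. The test against 0.5 log2 units accounts for 22 of the lost calls. With 2 libraries a group and 1 resistant line, differences between cultures cannot be told apart from differences between lines or treatments, and CDH2, ZEB2 and VIM were limited by their read numbers.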
